A study of Saccharomyces cerevisiae with 19 samples.

Results

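The proteasome genes of budding yeast described here are 33 genes taken by symbol from the platform annotation, out of 5449 genes measured: 32 subunits of the core and regulatory particles, and RPN4, the transcription factor that activates them. All 33 were on the array, each read by 1 probe set, and no filter on low values removed any of them. The subunits fall into the alpha ring (7 genes) and the beta ring (7) of the core particle, and the ATPases (6), the other base subunits (4) and the lid (8) of the regulatory particle. Total RNA of cultures was hybridised to Affymetrix Yeast 2.0 arrays, 1 for each culture sampled. The sch9 mutant, the long-lived strain of the study, lacks SCH9 per the labels and had 9 arrays at 12 h steps between 12 and 108 h of culture. The wild type had 10 arrays, between 12 and 120 h. Both strains came from frozen stocks, were grown overnight in SDC, diluted from saturation, and kept at 30 °C with shaking and no other treatment. The genetic background, the marker of the deletion and the number of clones are not given in the labels. The authors set aside the mutant array of 120 h after a quality check, so that time was read in the wild type alone.

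The proteasome degrades proteins that carry ubiquitin chains. Its core particle is a barrel in which outer alpha rings gate the entrance and inner beta rings hold the proteolytic sites, and its regulatory particle binds the substrate, removes ubiquitin and unfolds the chain with a ring of ATPases. In yeast Rpn4 binds the promoters of most subunit genes and is itself a short-lived substrate of the proteasome, so that its activity and proteasome capacity are tied in a feedback loop. Sch9 is a protein kinase of nutrient signalling, and loss of it extends the survival of nondividing yeast. As cultures leave growth, yeast proteasomes are known to leave the nucleus and gather in storage granules, which these RNA data do not read.

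The deposited values are log2 probe set signals, here quantile normalised over the 5449 genes. A value is a level on this log2 scale and a difference or slope is in log2 units; levels of different genes come from different probes and are not set against each other. No culture was repeated, so every p-value measures the spread over time points, which follow one another in the same strain. Arrays of whole cultures cannot tell apart a change in every cell and a change in the share of cells that hold the message. The deposited columns of the strains were not written alike: a common ending of 65 at decimal 9 marked 94.0% or more of the values in each mutant column and up to 0.0172% in the wild type, and whether the strains were processed alike is unknown here. The SCH9 probe set read 10.07 to 10.59 in the mutant and 10.43 to 11.26 in the wild type, and was lower in the mutant at 8 of 9 shared times (difference -0.52, SE 0.12, limma adjusted p = 0.00281). It was not at the floor of the array in the mutant, and where its probes lie relative to the deletion is not given, so it does not check the label. A score of RNA quality, the 3′ minus 5′ signal over 10 pairs of control probe sets, lay between 0.73 at 12 h and 1.06 at 24 h in the mutant, where the arrays from 36 h on read 0.79, 0.76, 0.86, 0.86, 0.86, 0.95 and 0.87, higher on the later ones. In the wild type it lay between 0.80 and 1.44, with its lowest value at 12 h and its highest at 120 h. The 3′ control probe set for 18S rRNA stayed between 6.69 and 7.68 in the mutant, against 8.03 to 14.63 in the wild type.

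Proteasome genes differed between the strains in both directions, in shares near those of all genes. Over the 9 shared times, with each time as a block, 9 of 33 genes were higher in the mutant and 8 lower at an adjusted p under 0.05 (limma, Benjamini-Hochberg over 5449 genes), and 16 did not pass. Of all genes 32.4% were higher and 26.8% lower, so both counts stood near the background. The median difference was 0.10 for the 33 genes and 0.03 for all genes. In the core particle 7 of 14 genes were higher and 2 lower, and in the regulatory particle 2 of 18 were higher and 6 lower. The split depended on the scaling: with each array centred on its median, 3 of the 33 genes were higher and 12 lower, and in the values as deposited 4 were higher and 5 lower. Median centring moved the median difference of all genes to -0.09 and that of the 33 genes to -0.16, and in the deposited values they were 0.17 and 0.10. Of all genes, 1767 were higher and 1458 lower after quantile normalisation, 1257 and 1986 after median centring, and 2112 and 1073 in the deposited values.

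**Figure D1:**
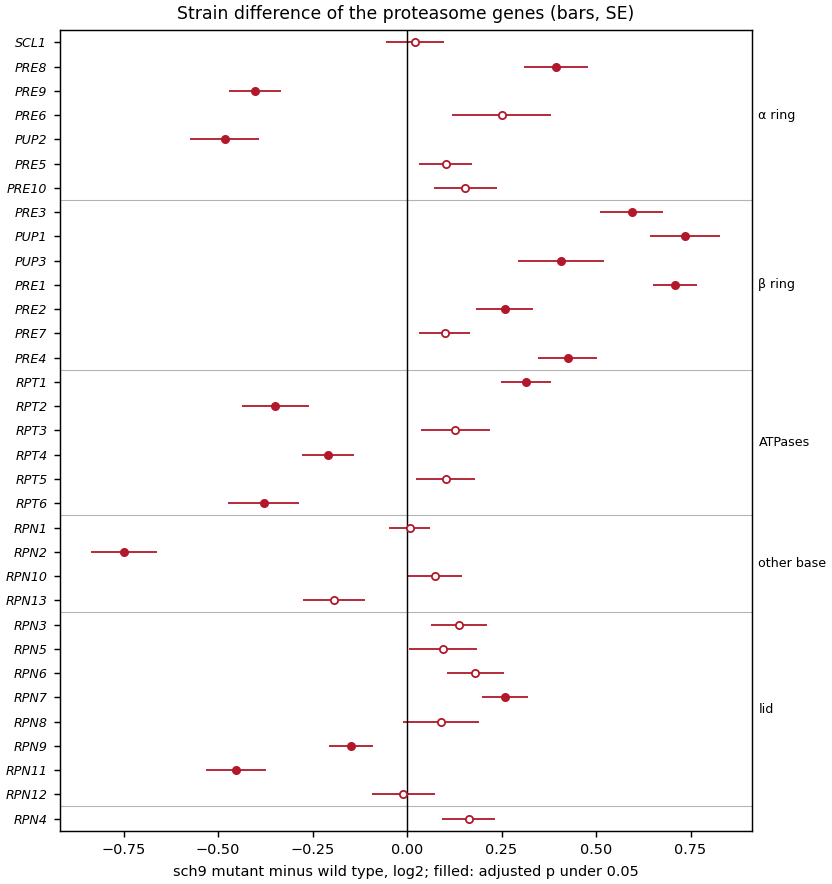
Strain difference of each proteasome gene (sch9 mutant minus wild type, log2 units on the x axis) over the 9 shared times, with genes down the page by subunit group. Points are limma estimates and bars their SE, and filled points have an adjusted p under 0.05. All 7 beta ring genes lie right of 0 (PRE2 and PRE7 lie left of it with median centring), and RPN2 lies farthest left at -0.75.

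The beta ring genes gave one-sided counts: 6 of 7 were higher in the mutant and 0 lower, with a median difference of 0.42, and 3 of 7 were higher in the deposited values or with median centring. PRE1, a structural beta subunit, read 11.73 at its lowest, 12.07 at the median and 12.18 at its highest in the mutant, against 11.01, 11.23 and 11.68 in the wild type. The lowest mutant value lay above the highest wild-type value, and PRE1 was higher in the mutant at 9 of 9 times (0.71, SE 0.06, adjusted p = 6.72e-06). PUP1, which carries the trypsin-like site, had levels of 11.09 to 11.62 with a median of 11.45 in the mutant, and 10.42 to 11.49 with a median of 10.54 in the wild type. Only the wild-type array of 12 h reached into the mutant range for PUP1, and the difference was 0.74 (SE 0.09, higher at 9 of 9 times, adjusted p = 7.2e-05). PRE3, which carries the caspase-like site, had mutant levels of 11.95 to 12.27 around a median of 12.14, and wild-type levels of 11.24 to 12.01 around 11.42 (difference 0.59, SE 0.08, adjusted p = 0.000146). PRE2, the gene of the chymotrypsin-like site, differed by 0.26 (SE 0.08, adjusted p = 0.0121), and PRE4 and PUP3, whose subunits carry no active site, by 0.42 and 0.41. PRE7 did not pass: its levels ran over 11.26, 11.51 and 11.73 (lowest, median, highest) in the mutant and over 11.19, 11.35 and 11.61 in the wild type, which overlapped almost throughout (0.10, SE 0.07, adjusted p = 0.222). The calls of PRE1, PUP1 and PRE3 were kept in the deposited values, after median centring and with cyclic loess. Those of PRE2, PRE4 and PUP3 were kept with cyclic loess alone, and with median centring PRE2 turned to -0.09 and PRE7 to -0.20. With the RNA quality score as a covariate PRE2 (0.25) and PUP3 (0.16) were not called, nor were they with times before 84 h alone (0.27 and 0.26).

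In the alpha ring, 1 of 7 genes was higher in the mutant and 2 were lower. PRE9, the alpha subunit that yeast can live without, read 10.51, 10.87 and 11.68 in the mutant, against 10.93, 11.17 and 11.82 in the wild type (lowest, median, highest). The ranges overlapped because both strains changed over time, yet at each of the 9 shared times the mutant was lower, by 0.14 at 12 h and by up to 0.65 at 84 h (difference -0.40, SE 0.07, adjusted p = 0.000484). PUP2, another alpha subunit, was also lower at 9 of 9 times (-0.48, SE 0.09, adjusted p = 0.000881), and PRE8 was higher at 9 of 9 (0.39, SE 0.08, adjusted p = 0.00203). PRE9 and PUP2 kept their call in each of the 3 other scalings, and PRE8 in 1 of 3. SCL1 gave the largest p in the ring, with mutant levels of 11.49, 11.83 and 12.16 and wild-type levels of 11.26, 11.68 and 12.22 (0.02, SE 0.08, adjusted p = 0.833), but with median centring it was called lower at -0.31. PRE6 had no constant difference: it was higher in the mutant by 0.94 at 24 h and 0.91 at 36 h, and lower by 0.20 at 96 h (0.25, SE 0.13, adjusted p = 0.121).

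In the base of the regulatory particle 1 of 10 genes was higher in the mutant and 4 were lower, with estimates above 0 for 5 of the 10. In the deposited values 0 were higher and 2 lower, RPT6 and RPN2. RPN2, the scaffold subunit on which the ubiquitin receptor Rpn13 sits, read 10.38, 10.65 and 10.96 in the mutant and 11.19, 11.43 and 11.62 in the wild type. The strains did not overlap, and RPN2 was lower in the mutant at 9 of 9 times (-0.75, SE 0.09, adjusted p = 4.15e-05), by 0.23 at 24 h and by 1.06 at 96 h. The other 3 base subunits outside the ATPase ring did not pass, and for RPN1, the scaffold that docks ubiquitin-like domains, mutant levels of 11.49, 11.73 and 12.02 stood against wild-type levels of 11.41, 11.56 and 12.18 (0.01, SE 0.05, adjusted p = 0.927). RPN1 was called lower, at -0.33, after median centring, as was RPN13 (-0.19 after quantile normalisation), at -0.46 there and at -0.23 with cyclic loess. Among the 6 ATPases 1 was higher and 3 were lower. RPT1 was higher at 8 of 9 times, with 11.75, 11.86 and 12.02 in the mutant and 11.30, 11.54 and 11.79 in the wild type (0.32, SE 0.07, adjusted p = 0.0018); its call was lost, at -0.02, after median centring. RPT6 had mutant levels of 11.48, 11.68 and 11.96, against 11.66, 12.03 and 12.45 in the wild type, and was lower in the mutant at 8 of 9 times (-0.38, SE 0.09, adjusted p = 0.0048). RPT2 and RPT4 were lower by smaller amounts (-0.35 and -0.21). RPT5 did not pass, with levels of 10.67, 10.88 and 11.44 in the mutant and 10.50, 10.61 and 11.52 in the wild type (0.10, SE 0.08, adjusted p = 0.278).

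In the lid, 1 of 8 genes was higher in the mutant and 2 were lower. RPN11, the deubiquitinase that cuts ubiquitin chains from the substrate, read 10.55, 10.79 and 11.14 in the mutant and 10.92, 11.22 and 11.82 in the wild type (lowest, median, highest). The ranges overlapped between 10.92 and 11.14, and at each shared time the mutant was lower (-0.45, SE 0.08, adjusted p = 0.000581, kept in the 3 other scalings). RPN7, a structural lid subunit, was higher at 9 of 9 times, with 10.71, 11.02 and 11.84 in the mutant against 10.35, 10.78 and 11.62 in the wild type (0.26, SE 0.06, adjusted p = 0.00339); with median centring it was 0.08 and not called. RPN9 was lower by the smallest called difference (-0.15, SE 0.06, adjusted p = 0.0467), and it was not called when the 36, 48, 60, 72, 84, 96 or 108 h pair was left out. The levels of RPN12 overlapped, at 10.96, 11.13 and 11.62 in the mutant and 10.84, 11.07 and 11.69 in the wild type (-0.01, SE 0.08, adjusted p = 0.932). With the RNA quality score as a covariate 8 of the 33 genes were higher and 5 lower, against 1457 and 1259 of 5449 genes. The median difference was then -0.01 for the 33 genes and 0.015 for all genes. The part of RNA quality in single genes was not tested.

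The difference of the subunits as a group also changed sign between 24 h, where its median was 0.085, and 36 h. At 36 h, 23 of the 32 subunits were lower in the mutant, with a median difference of -0.26, and at 60 h 24 of 32 were higher, with a median of 0.24. The sign at 36 h was negative in each of the 3 other scalings (median -0.31 to -0.68), but at 60 h median centring turned it to -0.18. At the other 7 shared times the median lay between 0.01 and 0.17, but at 48 h it was negative in each of the other scalings (-0.55 in the deposited values, -0.55 with median centring and -0.07 with cyclic loess). Median centring also gave negative medians, between -0.08 and -0.23, at 72, 84, 96 and 108 h, and cyclic loess gave -0.01 at 84 h. All genes had medians of 0.01 at 36 h and 0.06 at 60 h. In the beta ring, all 7 genes were higher in the mutant on the arrays of 24, 48, 60, 96 and 108 h, and 5 of 7 at 36 h. With median centring, and likewise in the deposited values, 3 of 7 were higher at 36 and at 48 h.

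**Figure D2:**
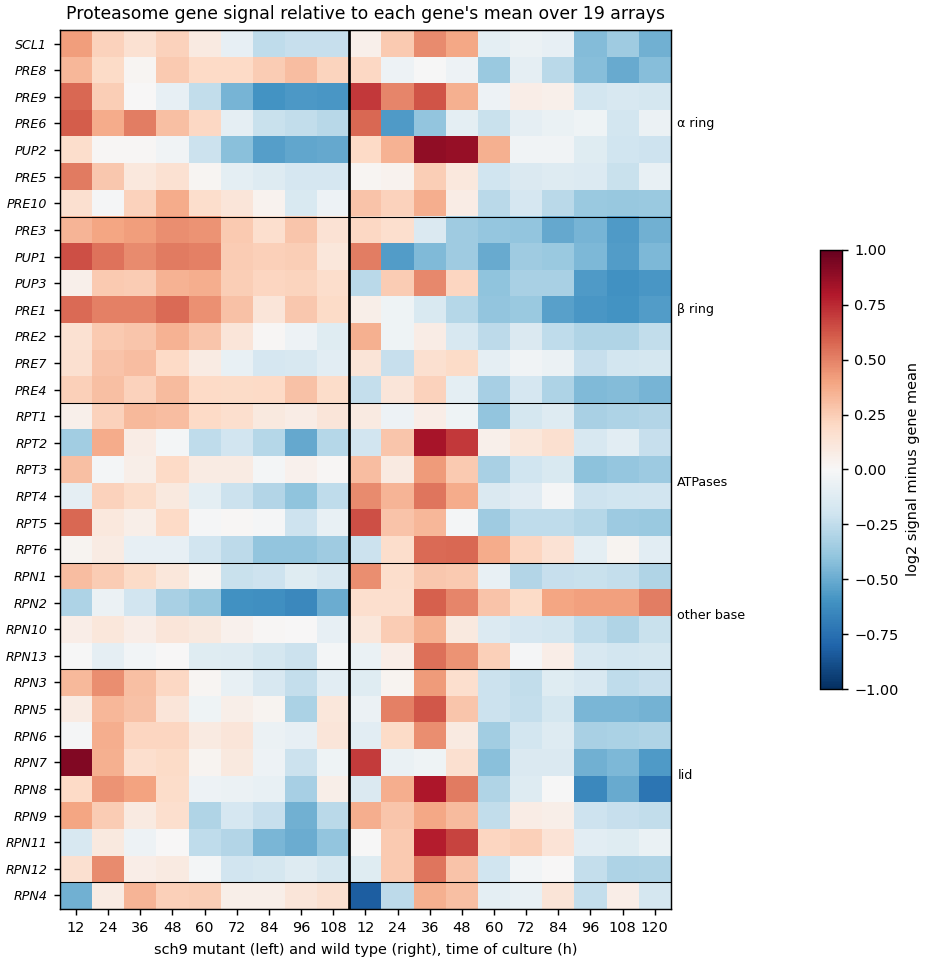
Level of each proteasome gene on each array, as the difference from that gene's mean over the 19 arrays (log2 units, colour), with the 9 sch9 mutant arrays left of the 10 wild-type arrays and genes grouped by subunit group. The wild-type columns of 36 and 48 h are high for most subunits and those from 60 h on low, and RPN4 is low at 12 h in both strains.

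Subunit genes peaked at different times in the strains. In the mutant 13 of 32 subunits had their highest level on the 12 h array, 10 on the 24 h array, 2 on the 36 h array, 6 on the 48 h array and 1 on the 60 h array. In the wild type the 12 h array was highest for 11 subunits, the 36 h array for 19 and the 48 h array for 2, while 14.1% of all genes were highest at 36 h. The 12 h array was highest for 39.8% of all genes in the mutant and 38.6% in the wild type, near the subunits' shares. The 24 h array was highest for 22.6% of all genes in the mutant and 15.6% in the wild type. The mutant arrays of 36 and 48 h were highest for 8.2% and 3.1% of all genes. In the other 3 scalings 0 to 1 subunits in the mutant and 16 to 24 in the wild type were highest at 36 h. None of the 3 kept a mutant subunit highest at 48 h, and in the deposited values 1 wild-type subunit was highest at 12 h. Between 24 and 36 h, 9 of 32 subunits went up in the mutant and 30 of 32 in the wild type. Their median step was -0.06 in the mutant and 0.18 in the wild type. Of all 5449 genes, 2463 rose over this interval in the mutant and 2522 in the wild type. The mutant array that opens the interval had the highest RNA quality score of its strain, 1.06, against 0.79 on the array that closes it. The matching wild-type arrays scored 0.82 and 0.87. What the score contributes to these steps was not tested. Between 48 and 60 h, 31 of 32 went down in the mutant and 32 of 32 in the wild type. That step was smaller in the mutant (median -0.12) than in the wild type (median -0.35), and RPN8, the lid partner of Rpn11, made the largest wild-type step, -0.83. Over the same interval 45.5% of all genes went down in the mutant and 44.4% in the wild type. Each step rests on 1 array at either end. In the deposited values 16 of 32 subunits went down in the mutant, with a median step of -0.005, against 0.058 for all genes. In the wild type 32 of 32 went down there, with a median step of -0.76, against -0.25 for all genes. Cyclic loess had 30 of 32 going down in the mutant, with a median of -0.11, and 32 of 32 in the wild type. With median centring 21 of 32 went down in the mutant and 31 of 32 in the wild type, so the size of the mutant step rests on the scaling. Across the same step the wild-type 18S control signal went up by a larger amount than in the mutant: the mutant arrays of 48 and 60 h read 6.97 and 7.68, and the wild-type arrays 8.62 and 10.54. The RNA quality score also went up, at 0.76 and 0.86 in the mutant and 0.865 and 1.09 in the wild type. The part of either in the step was not tested.

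**Figure D3:**
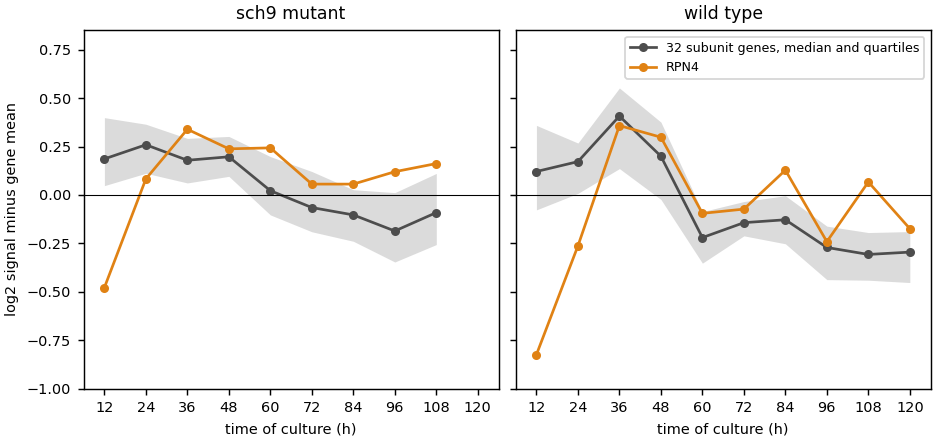
Median level of the 32 subunit genes (grey line, quartiles shaded) and RPN4 (orange), each as the difference from the gene's mean over the 19 arrays in log2 units, against time of culture in hours, for the sch9 mutant (left) and the wild type (right). The subunit median steps down between 48 and 60 h, by more in the wild type (in the mutant by a median of -0.12 here and -0.03 with median centring), and RPN4 starts low at 12 h in both strains.

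The slopes over the whole course that passed were all falls, in 11 proteasome genes of the mutant and 19 of the wild type. In the mutant 11 of 33 proteasome genes fell and 0 rose, against 4.64% and 5.38% of all genes, with a median slope of -0.12 per day over the 33 genes and -0.01 over all genes. In the wild type 19 of 33 fell and 0 rose, against 6.46% and 4.81% of all genes, with a median slope of -0.13 per day over the 33 genes and -0.01 over all genes. Both falling shares stood above those of all genes, but in the deposited values 2 of 33 fell in the mutant, against 151 of 5449 genes, and with median centring 5 of 33 fell in the mutant and 10 in the wild type. At an unadjusted p under 0.05, 19 fell and 0 rose in the mutant, and 27 fell and 0 rose in the wild type. By group, mutant falls numbered 5 of 7 in the alpha ring, 2 of 7 in the beta ring, 0 of 6 ATPases, 1 of 4 other base subunits and 3 of 8 in the lid. The wild-type falls numbered 5 of 7, 5 of 7, 3 of 6, 2 of 4 and 4 of 8 in the same order of groups. The falling counts moved with the times that were used. Without the 12 h arrays 19 genes fell in the mutant and 28 in the wild type, against 779 and 1131 of 5449 genes. With times before 84 h alone 0 of the 33 fell in either strain, and 11 and 8 of 5449 genes did. At an unadjusted p under 0.05, 5 of the 33 then fell in the mutant and 10 in the wild type, with 0 rising. Their median slopes were then -0.10 and -0.14 per day. In the mutant the count of genes called falling was 3 without 84 h, 4 without 96 h and 6 without 108 h.

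PRE9 fell in both strains, by 0.29 per day in the mutant (SE 0.04, adjusted p = 0.000206) and by 0.21 per day in the wild type (SE 0.03, adjusted p = 0.00192), and both calls were kept in the 3 other scalings. PRE6 fell by 0.24 per day in the mutant (SE 0.06, adjusted p = 0.0177), where it read 11.83 at 12 h and 10.95 at 108 h. Wild-type levels of PRE6 were 11.80 and 10.66 on the first 2 arrays and between 10.83 and 11.18 thereafter, and the wild-type slope was -0.01 (SE 0.05, adjusted p = 0.906), or 0.10 and called rising without 12 h. PRE1 fell by 0.11 per day in the mutant (SE 0.03, adjusted p = 0.0233) and by 0.15 in the wild type (SE 0.02, adjusted p = 0.0027), and PRE7 by 0.12 in the mutant (SE 0.04, adjusted p = 0.0417), against a wild-type slope of -0.06 (SE 0.03, adjusted p = 0.215). The mutant call of PRE7 held in 2 of 10 fits that each left out 1 time, and of the other scalings with cyclic loess alone. The slope difference of PRE7 was -0.06 (SE 0.05) and did not pass.

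In the regulatory particle, RPT5 had a slope of -0.13 per day in the mutant (SE 0.04, adjusted p = 0.0698) and fell by 0.21 in the wild type (SE 0.04, adjusted p = 0.00396). RPT6 passed in neither strain, at -0.13 in the mutant and -0.06 in the wild type. RPN1 fell by 0.14 per day in the mutant and by 0.17 in the wild type (SE 0.03 each). RPN2 was the only subunit whose wild-type slope lay above 0, at 0.04 (SE 0.03, adjusted p = 0.45), against -0.12 in the mutant (SE 0.04, adjusted p = 0.055). RPN7 fell by 0.20 per day in the mutant and by 0.21 in the wild type (SE 0.05 each, adjusted p = 0.0239 and 0.0107). RPN3, a structural lid subunit with levels of 10.73, 10.99 and 11.43 in the mutant and 10.72, 10.83 and 11.40 in the wild type, fell by 0.17 in the mutant (SE 0.04, adjusted p = 0.0213) and had a slope of -0.08 in the wild type (SE 0.04, adjusted p = 0.16). RPN8 had the steepest wild-type slope of the 33, -0.24 (SE 0.06, adjusted p = 0.0212), and -0.14 in the mutant (SE 0.07, adjusted p = 0.249).

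**Figure D4:**
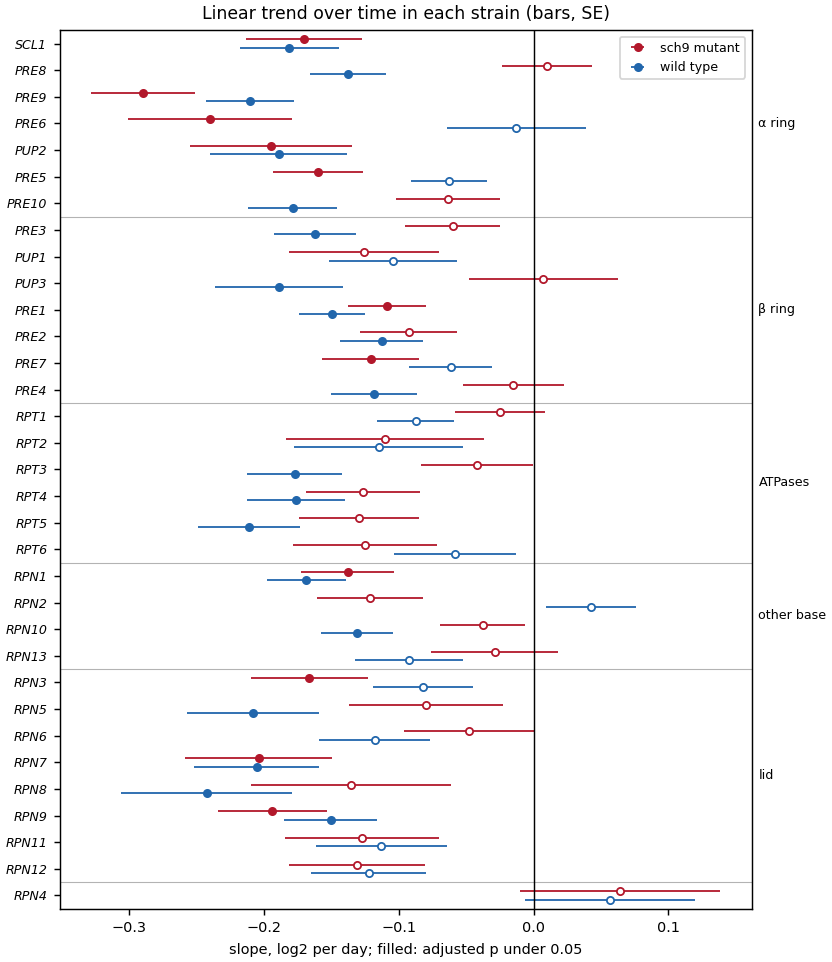
Linear slope over time of each proteasome gene (log2 units per day on the x axis), with the sch9 mutant in red above the wild type in blue for each gene. Points are limma estimates and bars their SE, and filled points have an adjusted p under 0.05. Slopes of 30 genes in the mutant and 31 in the wild type lie below 0.

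With the RNA quality score as a covariate 10 of the 33 genes fell in the mutant, against 302 of 5449 genes. In the wild type the score was higher on most later arrays. There 0 of the 33 fell, and 0 of 5449 genes passed in either direction. At an unadjusted p under 0.05, 3 of the 33 passed in the wild type, each falling. The median wild-type slope of the 33 genes was then -0.09 per day. Score and time cannot be told apart in the wild type on these arrays. The slopes did not differ detectably between strains: the difference of slopes, mutant minus wild type, passed for 0 of 33 proteasome genes (limma; at an unadjusted p under 0.05, 6 were higher and 3 lower), against 2.86% of all genes in either direction. With array weights 4 passed above 0 and 4 below, against 687 and 846 of 5449 genes. At 36 h and later 4 passed above and 1 below, against 745 and 872 of 5449 genes. Each member share lay below that of all genes. Among these 2 settings PRE8, PUP3 and RPN13 passed above 0 in both and PRE6 below 0 in both. Without the 12 h arrays 4 passed above 0, PRE8 and PUP3 among them, and 3 below, against 795 and 937 of 5449 genes.

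The range of a subunit over time was below the median range of all genes for 27 of 32 subunits in the mutant and for 21 of 32 in the wild type. The range over the arrays of a strain had a median of 0.56 over the 32 subunits in the mutant, with PRE4 lowest at 0.14 and PRE9 highest at 1.17. In the wild type the median range was 0.78, between 0.42 for PRE7 and 1.54 for RPN8. The same median over all genes was 0.85 in the mutant and 0.90 in the wild type.

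RPN4 was lowest at 12 h in both strains, as were 34.2% of all genes in the mutant and 31.3% in the wild type. After quantile normalisation 2 of 32 subunits were lowest and 13 highest at 12 h in the mutant, and 2 and 11 in the wild type. Of all genes 39.8% were highest at 12 h in the mutant and 38.6% in the wild type. Between 12 and 24 h 17 of 32 subunits rose in the mutant and 16 in the wild type, or 28 there in the deposited values. The mutant levels of RPN4 at 12 h steps from 12 to 108 h were 11.67, 12.23, 12.49, 12.39, 12.39, 12.20, 12.20, 12.27 and 12.31. Its wild-type levels from 12 to 120 h were 11.32, 11.89, 12.51, 12.45, 12.05, 12.08, 12.28, 11.91, 12.22 and 11.97. In both strains the 12 h array was the lowest, also in the other 3 scalings. The highest was the 36 h array, but after median centring, and also as deposited, it was the 24 h array in the mutant and the 48 h array in the wild type. The strain difference of RPN4 was 0.16 (SE 0.07, adjusted p = 0.063), above 0 at 6 of 9 times, and lay at -0.04 in the deposited values and at -0.29 after median centring. Its slopes were 0.06 per day in each strain (SE 0.07 in the mutant and 0.06 in the wild type), neither of which passed; at 36 h and later the wild-type slope was -0.12 and passed.

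Set against all later times, with strain as a covariate, the 2 arrays of 12 h had 6 of 33 proteasome genes higher and 1 lower, against 33.9% and 27.4% of all genes. The count of higher members, 6 of 33, was a smaller share than that background. The gene that was lower was RPN4 (-0.74, SE 0.13, adjusted p = 9.73e-05), and the call was kept in the 3 other scalings and without either 12 h array. Of the subunits, RPN7 was higher at 12 h by 0.88 (SE 0.15, adjusted p = 4.52e-05) and RPT5 by 0.66 (SE 0.16, adjusted p = 0.00118), each also without either 12 h array. The other 4 rested on particular arrays. PRE6 (0.66, SE 0.18) and PUP1 (0.62, SE 0.13) lost their call without the wild-type array of 12 h, PRE9 (0.71, SE 0.22) without the mutant array, and RPN1 (0.42, SE 0.15) with either 12 h array left out. PUP1 read 11.62 at 12 h and 11.52 at 24 h in the mutant, against 11.49 and 10.42 in the wild type. The count of higher members was 3 in the deposited values, where the median of all genes was -0.13 in place of 0.06, and 11 with cyclic loess; it was 11 without the 24 h arrays and 10 without those of 36 h.

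Other genes of the pathway were taken from 3 lists: 15 assembly factors and proteasome-associated proteins, 20 genes of ubiquitin, its conjugation, shuttling and Cdc48, and 5 other regulators. Of the 15, 6 were higher in the mutant and 3 lower, shares near those of all genes (32.4% and 26.8%). IRC25, a chaperone of alpha ring assembly, read 9.83 to 10.48 in the mutant with a median of 10.24, against 8.89 to 9.06 with a median of 8.96 in the wild type. The strains stood apart at every time (1.27, SE 0.08, adjusted p = 2.35e-06), and POC4, its assembly partner, was higher by 0.60 (SE 0.07). The core particle chaperones UMP1 and PBA1 were higher by 0.32 and 0.27, and the PBA1 partner ADD66 was lower (-0.29). BLM10, which encodes an alternative activator of the core particle, had mutant levels of 10.92 to 11.44 with a median of 11.20 and wild-type levels of 9.83 to 10.82 with a median of 10.30, with no overlap (0.91, SE 0.12, adjusted p = 8.1e-05). NAS2, a chaperone of base assembly, was higher by 0.73 (SE 0.11, adjusted p = 0.000164). SPG5, a proteasome factor of stationary phase, was lower in the mutant at 9 of 9 times (-0.61, SE 0.05, adjusted p = 8.36e-06), with levels of 11.04 at 12 h and 12.30 to 12.74 later in the mutant, and of 11.64 and 12.70 to 13.42 in the wild type. SEM1, a small lid protein kept in this list, was lower (-0.29, SE 0.09).

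**Figure D5:**
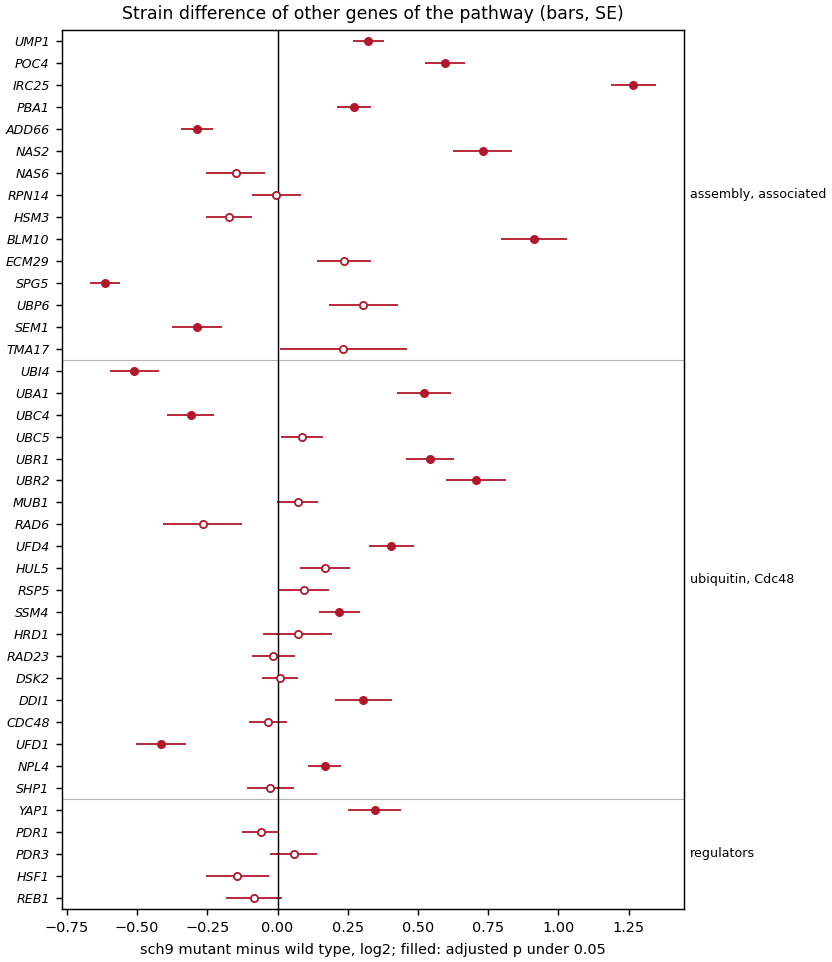
Strain difference (sch9 mutant minus wild type, log2 units on the x axis) over the 9 shared times for 40 other genes of the pathway, in 3 lists down the page. Points are limma estimates and bars their SE, and filled points have an adjusted p under 0.05. IRC25 lies farthest right at 1.27 and SPG5 farthest left at -0.61.

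Among the 20 genes of ubiquitin and Cdc48, 7 were higher in the mutant and 3 lower, with the higher share near the 32.4% of all genes and the lower share under their 26.8%. UBR2, the ubiquitin ligase that marks Rpn4, was higher at 9 of 9 times, with 8.80 to 9.51 around a median of 9.25 in the mutant and 8.22 to 8.76 around a median of 8.50 in the wild type (0.71, SE 0.11, adjusted p = 0.00022), and no mutant array lay below the highest wild-type array. MUB1, its partner, did not pass (0.07). UBR1, the ligase of the N-degron pathway, was higher by 0.54, UBA1, the ubiquitin-activating enzyme, by 0.52, and UFD4, another ligase, by 0.41; DDI1, a shuttle protein, SSM4, a ligase of the endoplasmic reticulum, and NPL4, a Cdc48 cofactor, differed by 0.31, 0.22 and 0.17. The SSM4 call was kept in none of the 3 other scalings. UBI4, the polyubiquitin gene, was lower at 9 of 9 times (-0.51, SE 0.09, adjusted p = 0.000538), as were UFD1, another Cdc48 cofactor (-0.41), and UBC4, a ubiquitin-conjugating enzyme (-0.31), at 8 of 9. UBI4 repeats and other ubiquitin genes, and UBC4 and UBC5, share much sequence, so their probe signals are uncertain. Of the 5 other regulators, YAP1, which activates RPN4 under oxidative stress, was higher (0.35, SE 0.09, adjusted p = 0.00821) and 0 were lower.

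Trends passed for 3 of these 40 genes in the mutant and 4 in the wild type, shares near or below those of all genes (5.38% rising and 4.64% falling in the mutant, 4.81% and 6.46% in the wild type). In the mutant UBP6, the proteasome-bound deubiquitinase, fell by 0.24 per day and CDC48, the segregase, by 0.20, while UBC5 rose by 0.36. In the wild type RAD23, a shuttle protein, fell by 0.16, NAS6, a base chaperone, by 0.16, and REB1 by 0.18, while SPG5 rose by 0.28. At 12 h against later times, 3 of 15 were higher and 4 lower in the assembly list, 2 of 20 and 6 of 20 in the ubiquitin list, and 0 of 5 and 3 of 5 among the regulators. Of all genes 33.9% were higher and 27.4% lower, and the lower counts of the first 2 lists stood near that share. UBC5 and SPG5 had the most negative differences of the 40 at 12 h (-1.58 and -1.57, SE 0.14 each), followed by UBI4 (-0.99, SE 0.12). UBI4 read 11.05 at 12 h and 12.19 to 12.54 later in the mutant, and 12.05 and 12.56 to 12.92 in the wild type.

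Outside these lists, 5 genes had profiles nearest to the mean profile of the 32 subunits. The measure was the root mean square distance of centred levels over the 19 arrays, among 4689 genes at least as variable as that profile, whose SD was 0.20. APS3, a subunit of a vesicle adaptor complex, lay at 0.101, RNH70, an exonuclease, at 0.105, NBP2 at 0.113, URE2, a regulator of nitrogen use, at 0.115 and PIL1, an eisosome protein, at 0.116. The 32 subunits lay between 0.090 for RPN10 and 0.473 for RPN2, with a median of 0.183, against a median of 0.380 for all genes, and RPN4 lay at 0.335. The subunits enter the mean profile themselves. RPN2 and PUP1, at 0.396, were the subunits farthest from it.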

How the data were processed

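The authors deposited log2 probe set signals of 19 arrays; software, background correction and normalization: not given in the sources used here. Of 5814 probe sets, 51 were controls and 265 had no single gene; 5498 matched a RefSeq gene (assembly R64), 12 under an updated symbol, and for 47 genes with several probe sets the one of highest mean was kept, which left 5449 genes. Medians of the deposited columns differed by 0.62, over the limit of 0.1 set for scaling, so values were quantile normalised. limma 3.58.1 in R 4.3.3 (lmFit, eBayes) tested the strain difference with time as a block (18 arrays, 8 residual degrees of freedom), the slopes and their difference (19 arrays, 15) and 12 h against later times (18 arrays, 15), with Benjamini-Hochberg adjustment over 5449 genes and a threshold of 0.05. Time pairs the strains, and the block is part of the main fit. The fits were tested on simulated data. The number of arrays limits the precision. The members and lists were chosen with earlier results of these data known. Any member or listed gene could be named; full levels were given for RPN4 and, in each subunit group, for the genes of the smallest and largest p in the strain difference and in the wild-type trend, with others chosen after their values were seen. Alternatives were cyclic loess, the deposited values, centring on the median, array weights, leaving out dim genes or times, no block, each strain fitted alone and the RNA quality score as a covariate. A planned search of promoter sequences was not made.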

Additional observations from a re-analysis of the deposited data

Results flagged for a closer look

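Among 66 groups tested (33 proteasome genes in each strain), 6 held an array whose gap to its nearest neighbour was large against the whole range of the group. Chance gives about 1 in 20 groups where arrays repeat 1 condition. These arrays follow a time course, so the count cannot be set against that rate. In 5 of the 6 groups the array set apart was that of 12 h. RPN4 was lowest at 12 h in the mutant (11.67) and in the wild type (11.32), RPN7 highest in the mutant (11.84), and PRE6 (11.80) and PUP1 (11.49) highest in the wild type. Of all genes 39.8% were highest and 34.2% lowest at 12 h in the mutant, and 38.6% and 31.3% in the wild type. PRE8 was lowest in the mutant at 36 h, at 11.56.

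The slope of UBP6 differed between the strains by a test of that difference: mutant minus wild type was -0.26 per day (SE 0.06, adjusted p = 0.0353 by limma), with a slope of -0.24 in the mutant and 0.02 in the wild type. The call held in 2 of 10 fits that each left out 1 time and in 1 of 3 other scalings.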

How the results depend on the processing

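Genes higher in the mutant numbered 9 of 33 and became 4 in the deposited values, 3 with median centring and 16 with array weights. Of 5449 genes 2112, 1257 and 2306 were higher in these settings. The 8 lower became 5 in the deposited values, 4 with no time block, 5 before 84 h and 5 with the RNA quality score as covariate. Of 5449 genes 1073, 1049, 1061 and 1259 were lower in these settings. The 19 falling in the wild type became 10 with median centring, 30 at 36 h and later, and 0 before 84 h or with the score. Of 5449 genes 189 fell there with median centring, 1130 at 36 h and later, 8 before 84 h and 0 with the score. The 11 falling in the mutant became 2 in the deposited values, 5 with median centring, 23 with array weights and 0 before 84 h. Of 5449 genes 151, 188, 836 and 11 fell in these settings. Slope differences, 0 and 0, became 4 above and 4 below 0 with array weights and 4 and 1 at 36 h and later. Of 5449 genes 687 and 846 passed with array weights, and 745 and 872 at 36 h and later. At 12 h the 6 higher became 3 in the deposited values, 11 with cyclic loess and 2 with array weights, and the 1 lower became 3 with the score. Of 5449 genes 1211, 1646 and 1036 were higher in these settings, and 1593 were lower with the score. Leaving out 1 time or 12 h array at a time gave 0 to 1 rising and 14 to 28 falling in the wild type, 3 to 19 falling in the mutant, 0 to 4 slope differences above 0 and 0 to 3 below, and 4 to 11 genes higher at 12 h. Without dim genes, and with each strain fitted alone, no count moved by over 1.5 times. The 1 array per strain and time limits every count.

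Of values past the threshold in either setting, strain differences changed sign with median centring for SCL1 (-0.31), PRE10 (-0.20), PRE2 (-0.0924), RPT1 (-0.0242), RPN1 (-0.33), UBC5 (-0.43) and DSK2 (-0.36), and RPN14 was 0.27 in the deposited values. At 36 h and later, slopes turned for RPN4 (-0.12) and DDI1 (-0.0901) in the wild type and TMA17 (-0.35) and HSF1 (-0.12) in the mutant, and slope differences for TMA17 (-0.42) and UBR2 (-0.19). With array weights mutant slopes turned for TMA17 (-0.34) and YAP1 (-0.12), and slope differences for PRE2 (-0.12), TMA17 (-0.39), UBR2 (-0.21) and UFD4 (-0.15). Without the 12 h arrays, or without the 12 h array of the mutant in the comparison of 12 h, these turned: over the fits that each left out 1 time, the wild-type slope of PRE6 ran between -0.0662 and 0.0973, mutant slopes of TMA17 between -0.28 and 0.11 and of HSF1 between -0.14 and 0.12, slope differences of TMA17 between -0.31 and 0.14, of UBI4 between -0.12 and 0.0732 and of UBR1 between -0.12 and 0.0429, and the 12 h difference of TMA17 between -1.68 and 0.25. The causes were not tested.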
